A study of Mus musculus with 10 samples.

Results

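The 10 genes described here encode the chaperones of the endoplasmic reticulum (ER) and the proteins that sense unfolded protein there: Atf6, Ern1, Xbp1, Hspa5, Hsp90b1, Calr, Pdia4, Dnajb9, Sdf2l1 and Herpud1. They were taken by gene symbol from the RNA-seq tables of ASZ001 cells, a mouse basal cell carcinoma (BCC) cell line that keeps growing under Smoothened inhibitors. All 10 were found among the 17658 genes of the SB431542 table and the 16719 genes of the T-5224 table, and all 10 passed the filter on low values in both. In the SB431542 experiment, 3 libraries of cells given 10 µM SB431542, an inhibitor of the TGFß type I receptor ALK5, stood against 3 libraries of DMSO vehicle. In the T-5224 experiment, 2 libraries of cells given 20 µM T-5224, an AP-1 inhibitor, stood against 2 libraries of their own DMSO vehicle, called DMSO a and DMSO b here. All cells, vehicle included, were kept in low-serum medium for 24 h, and each inhibitor was given at 1 dose and sampled at 1 time. The data are from a single cell line, and mRNA levels show neither the protein nor the spliced share of Xbp1.

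Proteins that enter the secretory pathway are folded in the ER by chaperones, lectins and enzymes that form disulfide bonds. When unfolded protein builds up, 3 sensors in the ER membrane respond. ATF6 moves to the Golgi, where 2 proteases release its cytosolic part as a transcription factor, IRE1α (Ern1) splices Xbp1 mRNA so that it encodes an active factor, and PERK (Eif2ak3) phosphorylates eIF2α and so favours translation of ATF4. ATF6 and XBP1 act on chaperone genes in good part through ER stress elements in their promoters.

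With T-5224, all 10 genes rose and 9 of them rose more than 2-fold, where 40.3% of all genes tested were higher and 10.4% more than 2-fold higher. Hspa5, the gene of the ER chaperone BiP, rose 14.3-fold, and Herpud1, Xbp1 and Atf6 rose more than 4-fold. With SB431542, where 10.2% of all genes were higher and 10.0% lower, no gene of the 10 rose and 8 did not pass the test. Xbp1 fell to 0.596 of its DMSO level, and Calr fell to 0.812 of it, a call that did not hold in several alternatives given with its values.

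The promoter sequences of the 4 genes that hold an exact ER stress element are shown because the chaperones with the highest levels are among them. Promoter windows run from 250 bases before to 50 bases after the transcription start and are from RefSeq (GRCm38.p6). The element has CCAAT and CCACG with 9 bases between them. The second ER stress element has ATTGG and CCACG with 1 base between them. Both were searched on both strands, and the letters of each match are in capitals. A match of the first element on the strand opposite to the gene reads CGTGG and then ATTGG.
Hspa5, chr2:34771840-34772089, plus strand: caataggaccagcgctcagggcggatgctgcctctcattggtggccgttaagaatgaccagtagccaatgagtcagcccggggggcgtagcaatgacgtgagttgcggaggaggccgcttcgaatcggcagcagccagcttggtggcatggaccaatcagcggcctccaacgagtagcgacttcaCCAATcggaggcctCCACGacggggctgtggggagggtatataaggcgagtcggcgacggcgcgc
Hsp90b1, chr10:86705513-86705676, minus strand: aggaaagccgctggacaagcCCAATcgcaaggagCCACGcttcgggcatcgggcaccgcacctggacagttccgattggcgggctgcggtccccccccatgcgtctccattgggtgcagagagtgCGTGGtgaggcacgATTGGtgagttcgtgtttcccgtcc
Calr, chr8:84847055-84847113, minus strand: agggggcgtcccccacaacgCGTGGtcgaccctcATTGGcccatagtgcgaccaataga
Herpud1, chr8:94386357-94386407, plus strand: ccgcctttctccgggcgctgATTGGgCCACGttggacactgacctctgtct
In Hspa5 the element began 65 bases before the start. Hsp90b1 held 2 copies, 1 on the gene's strand from 212 bases before the start and 1 on the opposite strand from 107 bases before it. Calr held 1 on the opposite strand from 162 bases before its start, and Herpud1 held the second element from 52 bases before its start. The first element stood in 0.119% of the 32851 promoter windows of the mouse table and the second in 0.0365%, or either of them in 0.155%. Windows were found for 9 of the 10 genes, all but Atf6, so 4 of 9 held an exact element. ER stress elements are known from chaperone genes, as said above, so matches in these genes were likely from the start. The shares are a description, and no test was run on them.

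With up to 1 mismatch in the fixed letters, a setting chosen after the data were seen, Pdia4 and Sdf2l1 were added, which makes 6 of 9, against 2.58% of all windows. The map of motif matches shows that Ern1, Xbp1 and Dnajb9 held neither element within their windows. Other motifs were rare among the 9. The AP-1 site TGANTCA was matched once, in Hspa5 from 182 bases before the start, and it stood in 7.81% of all windows. The ATF4 core TGATGNAA was matched once, in Herpud1 from 112 bases before the start and on the opposite strand, against 3.97% of all windows. The XBP1 element TGACGTGG, which 0.676% of all windows held, was matched in none of the 9. These are matches of letters and do not show that a factor was bound, and none of these shares was tested.

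**Figure D1:**
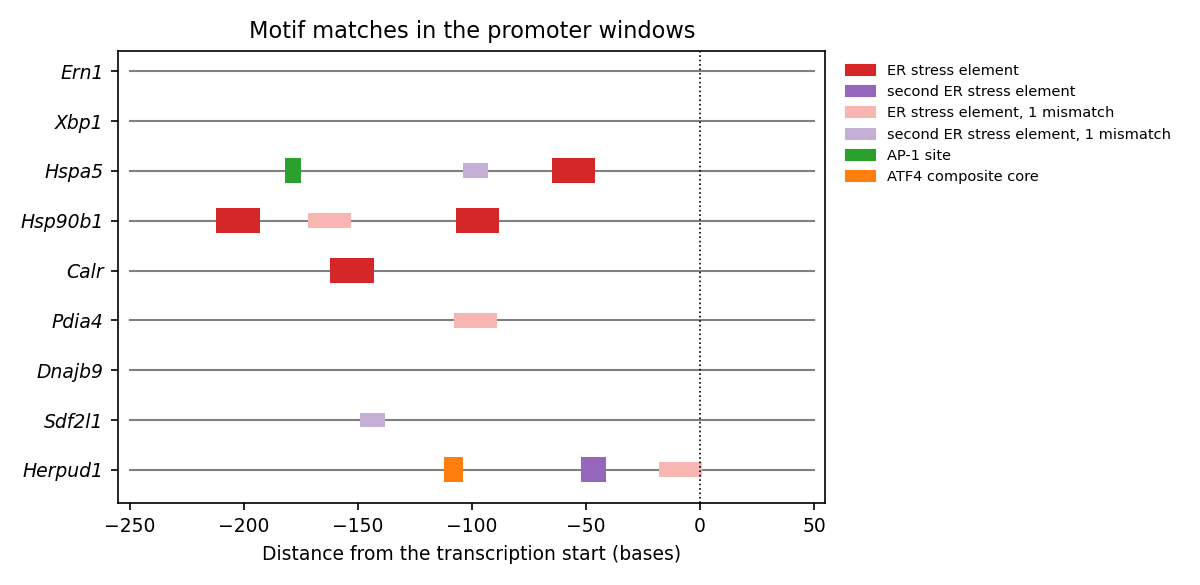
Motif matches in the promoter windows of 9 of the 10 genes, by distance from the transcription start in bases. Tall bars are exact matches and short pale bars are ER stress elements with 1 mismatch; exact elements lie between 212 and 52 bases before the start in Hspa5, Hsp90b1, Calr and Herpud1.

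Values are read numbers divided by gene length and by the mapped total of the library (RPKM), as the authors deposited them. Being per length, they can be compared roughly between genes, with the limit that reads of near-identical genes may be split. Each library held 31.8 to 51.2 M reads, worked out from the steps between low values, and an estimated 321 to 159574 reads lay behind the value of 1 of the 10 genes in a library. Counting error is thus small, and the spread between libraries sets the error of a comparison. The most variable library was DMSO 1 of the SB431542 experiment, with an SD of 0.272 on the log2 scale around its group over all genes tested, against 0.123 to 0.190 for the other 5 libraries. Of the basal keratinocyte markers (Krt5, Krt14, Krt15, Krt17, Trp63, Itga6, Itgb4, Cdh1 and Epcam), 9 of 9 were expressed, and those of fibroblasts and melanocytes summed to at most 4.14 and 0.426 RPKM in any library. Immune markers, nearly all from Cd68, summed to 7.04 to 33.2 RPKM, and endothelial markers, nearly all from Pecam1, to 2.60 to 11.8 RPKM.

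In the DMSO libraries, Calr was the highest of the 10. In the vehicle arm of the SB431542 experiment it was at 438 ± 41.7 RPKM (SD, n = 3), followed by Hsp90b1 at 265 ± 27.9 RPKM, Hspa5 at 198 ± 12.5 RPKM and Pdia4 at 99.8 ± 4.0 RPKM. Ern1, the lowest, was at 2.75 ± 0.323 RPKM. In the vehicle arm of the T-5224 experiment Calr was at 213 ± 13.3 RPKM (SD, n = 2) and Hsp90b1 at 103 ± 7.76 RPKM, and Pdia4 (84.7 ± 3.46 RPKM) and Hspa5 (83.4 ± 4.73 RPKM) did not differ beyond their spread. The lower part of the order was Xbp1, Herpud1, Sdf2l1, Dnajb9, Atf6 and Ern1 there, and Herpud1, Sdf2l1, Xbp1, Atf6, Dnajb9 and Ern1 in the SB431542 experiment, where Sdf2l1 and Xbp1 did not differ beyond their spread. The 2 tables were normalized separately and their DMSO levels were not tested against each other.

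**Figure D2:**
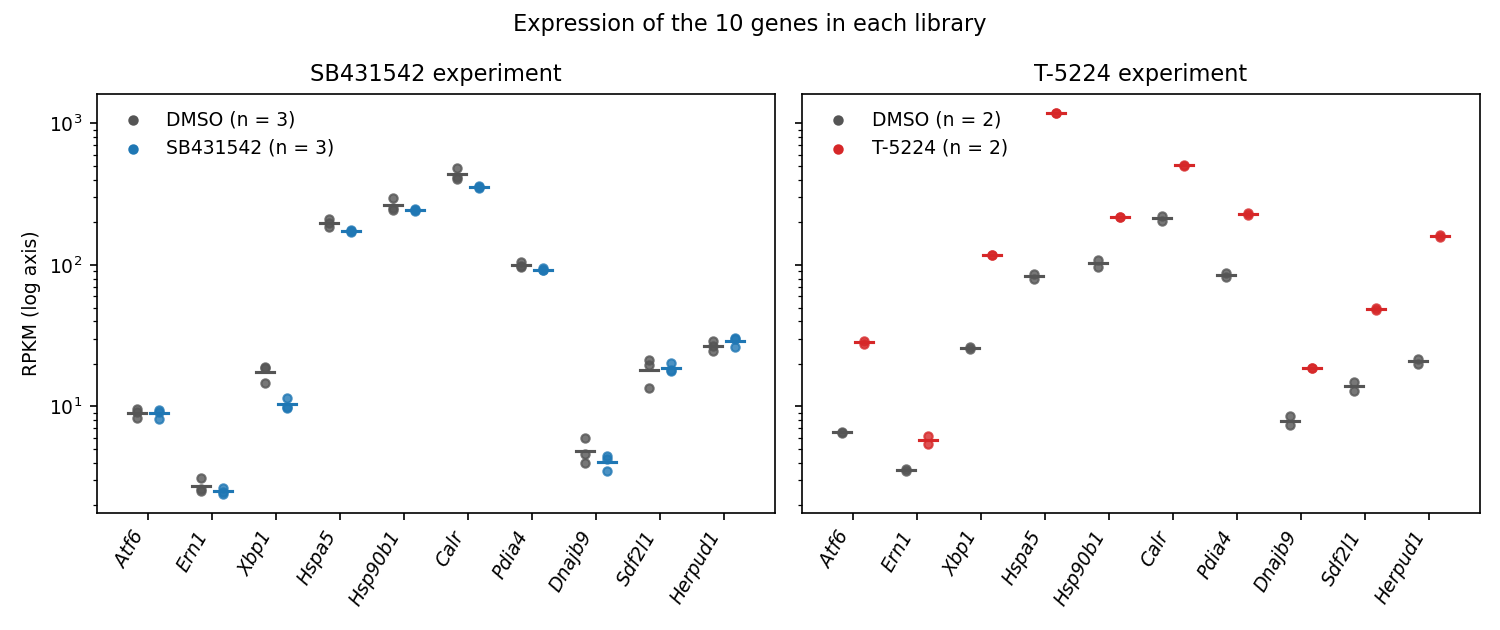
RPKM of the 10 genes in each library of the SB431542 experiment (left) and the T-5224 experiment (right), on a log axis. Points are libraries and bars are group means; the T-5224 libraries lie above the DMSO libraries for all 10 genes, and the SB431542 libraries lie below all DMSO libraries for Xbp1, Hspa5, Calr and Pdia4.

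The first comparison asks how the sensors and their factor differed with T-5224. Atf6 (mm9 chr1:172634588-172797902), the sensor that is itself a transcription factor, was at 6.61 and 6.53 RPKM in the DMSO libraries and at 29.1 and 27.8 RPKM with T-5224. Ern1 (chr11:106255964-106349166), the kinase and RNase that splices Xbp1, was at 3.50 and 3.59 RPKM in DMSO and at 5.44 and 6.23 RPKM with T-5224. Xbp1 (chr11:5420662-5425896), its target, was at 25.4 and 26.5 RPKM in DMSO and at 118 and 118 RPKM with T-5224. Every T-5224 library lay above every DMSO library for all 3 genes. The mean of Atf6 rose 4.33-fold (log2 fold change 2.03, SE 0.07, limma adjusted p = 2.26e-10), that of Xbp1 4.55-fold (2.16, SE 0.05, adjusted p = 2.56e-11) and that of Ern1 1.64-fold (0.64, SE 0.10, adjusted p = 6.75e-05). Log2 fold changes are on the scale of log2(RPKM + 0.5). In bulk RNA, a change in the number of cells of a kind and a change in RNA per cell cannot be told apart.

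Among the chaperones, Hspa5 (chr2:34627490-34632051), the Hsp70 protein of the ER that also holds the sensors inactive, was at 86.8 and 80.1 RPKM in DMSO and at 1193 and 1187 RPKM with T-5224. Hsp90b1 (chr10:86152954-86168254), the Hsp90 protein of the ER known as GRP94, was at 108 and 97.1 RPKM in DMSO and at 218 and 219 RPKM with T-5224. Calr (chr8:87365749-87370833), the calcium-binding lectin that holds new glycoproteins, was at 222 and 204 RPKM in DMSO and at 509 and 504 RPKM with T-5224. The groups were apart in all 3, and the gap was widest for Hspa5. Its rise of 14.3-fold (log2 fold change 3.83, SE 0.05, limma adjusted p = 4.68e-13) was the 34th largest of the 10809 genes tested. Calr rose 2.38-fold (1.25, SE 0.06, adjusted p = 2.61e-09) and Hsp90b1 2.13-fold (1.09, SE 0.06, adjusted p = 1.31e-08).

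Hspa5 thereby changed its place in the order of levels. It ranked 753 in level among the 16719 genes of the table in the DMSO libraries and 15 with T-5224, while Calr moved from 189 to 55. The ratio of Hspa5 to Hsp90b1 was 0.803 and 0.825 in the DMSO libraries and 5.47 and 5.41 with T-5224. Hspa5 made up 14.8% ± 0.0688 (SD, n = 2) of the summed RPKM of the 10 genes in DMSO and 47.1% ± 0.0823 with T-5224, where the share of Calr was 37.8% and then 20.1%. The 10 genes together took 0.157% and 0.169% of all RPKM in the DMSO libraries and 0.699% and 0.713% with T-5224. The order of levels with T-5224 was Hspa5, Calr, Pdia4, Hsp90b1, Herpud1, Xbp1, Sdf2l1, Atf6, Dnajb9 and Ern1, and no 2 neighbours in it overlapped.

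The folding enzyme and the co-chaperones rose between 2-fold and 4-fold. Pdia4 (chr6:47746141-47763511), a protein disulfide isomerase, was at 87.2 and 82.3 RPKM in DMSO and at 232 and 227 RPKM with T-5224. Sdf2l1 (chr16:17130231-17132476), a small partner of the ER DnaJ proteins, was at 12.9 and 14.9 RPKM in DMSO and at 48.1 and 49.9 RPKM with T-5224. Dnajb9 (chr12:45306884-45311055), the DnaJ protein ERdj4 that brings BiP to IRE1α, was at 8.51 and 7.36 RPKM in DMSO and at 18.7 and 18.8 RPKM with T-5224. No T-5224 library overlapped the DMSO libraries. Sdf2l1 rose 3.53-fold (log2 fold change 1.78, SE 0.07, limma adjusted p = 1.12e-09), Pdia4 2.71-fold (1.43, SE 0.05, adjusted p = 5.29e-10) and Dnajb9 2.37-fold (1.20, SE 0.08, adjusted p = 7.28e-08).

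Herpud1 (chr8:96910338-96919277), a membrane protein of the machinery that returns misfolded proteins to the cytosol for degradation, had the second largest rise of the 10. It was at 21.8 and 19.8 RPKM in the DMSO libraries and at 162 and 157 RPKM with T-5224, with no overlap. This was a rise of 7.64-fold (log2 fold change 2.90, SE 0.06, limma adjusted p = 7.18e-12), the 87th largest of all genes tested.

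These counts stand against a broad response. With T-5224, 40.3% of the 10809 genes tested passed the test as higher (limma, adjusted p under 0.05) and 39.4% as lower, against 10 and 0 of the 10 genes here. More than 2-fold higher were 10.4% of all genes and 9 of the 10, all but Ern1. All T-5224 libraries were above all DMSO libraries in 45.1% of all genes and in 10 of the 10. The median log2 fold change was 1.61 over the 10 genes and 0.003 over all genes tested. In the same libraries 8 of 9 basal keratinocyte markers fell, and their summed level went from 15096 and 15851 RPKM in DMSO to between 2509 and 2623 RPKM with T-5224. Cd68 among the immune markers was higher and Pecam1 among the endothelial ones lower, with list sums of 16.8 to 18.7 RPKM in DMSO and 32.8 to 33.2 RPKM with T-5224, and of 10.7 to 11.8 and 4.11 to 4.67 RPKM. Dcn among the fibroblast markers was higher, with list sums of 2.35 to 2.49 and 2.57 to 2.81 RPKM. The part of these shifts in the result for the 10 genes was not tested.

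**Figure D3:**
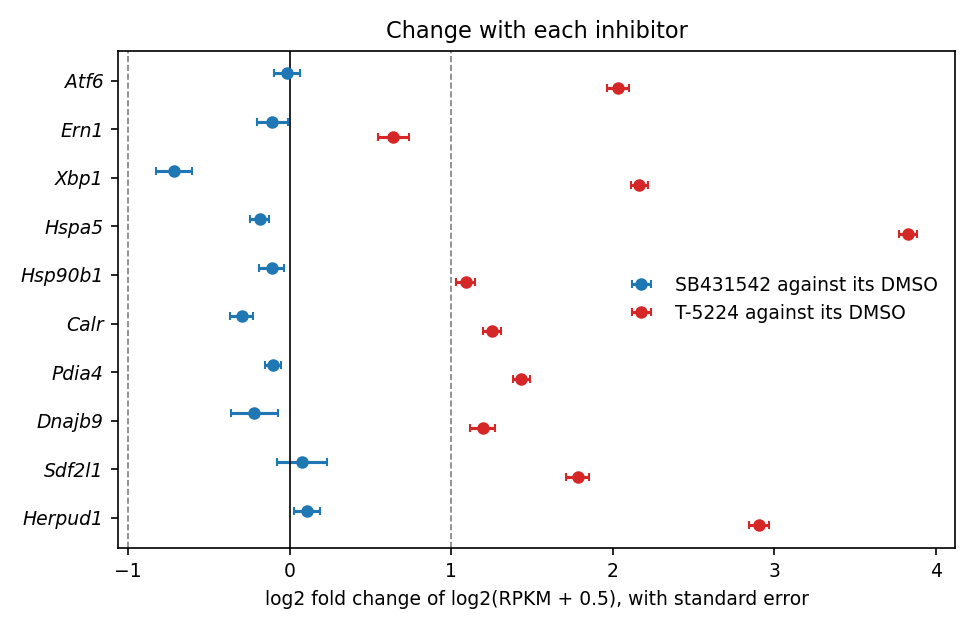
Log2 fold change of the 10 genes with SB431542 and with T-5224, each against its own DMSO libraries, with standard errors from limma. Dashed lines mark 2-fold; T-5224 values run from 0.64 (Ern1) to 3.83 (Hspa5), and SB431542 values from −0.71 (Xbp1) to 0.11 (Herpud1).

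The second comparison asks how the same genes differed with SB431542. Xbp1 was at 14.6, 18.8 and 18.9 RPKM in the DMSO libraries and at 11.4, 9.97 and 9.82 RPKM with SB431542. The groups did not overlap, and the mean fell from 17.5 ± 2.47 RPKM (SD, n = 3) to 10.4 ± 0.886 RPKM (log2 fold change −0.71, SE 0.11, limma adjusted p = 0.00616). Calr was at 485, 406 and 422 RPKM in DMSO and at 348, 356 and 361 RPKM with SB431542. It fell from 438 ± 41.7 to 355 ± 6.53 RPKM (−0.30, SE 0.07, adjusted p = 0.0303), a call that was lost without any 1 of the 3 SB431542 libraries (adjusted p 0.0982 to 0.114), with the replicate number as a block (0.0697) and with no filter on low values (0.0688).

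Hspa5 was at 186, 198 and 211 RPKM in DMSO and at 171, 174 and 177 RPKM with SB431542, and Pdia4 was at 104, 97.9 and 97.1 RPKM in DMSO and at 91.9, 94.9 and 91.7 RPKM with SB431542. Neither overlapped, but neither passed the test (log2 fold change −0.19, SE 0.06, limma adjusted p = 0.0642 for Hspa5, and −0.10, SE 0.05, adjusted p = 0.190 for Pdia4). Hspa5 did pass it with quantile normalization of all 6 libraries (adjusted p = 0.0281) and without DMSO 1, the most variable library (adjusted p = 0.00161).

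The other 6 genes overlapped between the groups. Hsp90b1 was at 297, 244 and 254 RPKM in DMSO and at 242, 243 and 249 RPKM with SB431542 (log2 fold change −0.11, SE 0.08). Herpud1 was at 26.6, 29.2 and 24.8 RPKM in DMSO and at 30.0, 30.6 and 26.4 RPKM with SB431542 (0.11, SE 0.08), and Sdf2l1 at 13.5, 21.2 and 19.6 RPKM in DMSO and at 20.3, 18.1 and 17.9 RPKM with SB431542 (0.08, SE 0.16). In Hsp90b1 and Sdf2l1 it was DMSO 1 that lay farthest out. Atf6 was at 9.67, 9.13 and 8.29 RPKM in DMSO and at 8.19, 9.45 and 9.14 RPKM with SB431542 (−0.02, SE 0.08). Ern1 was at 3.12, 2.61 and 2.52 RPKM in DMSO and at 2.47, 2.66 and 2.41 RPKM with SB431542 (−0.11, SE 0.09), and Dnajb9 was at 5.95, 3.98 and 4.65 RPKM in DMSO and at 4.44, 4.27 and 3.51 RPKM with SB431542 (−0.22, SE 0.14). The limma adjusted p of these 6 genes lay between 0.315 (Dnajb9) and 0.911 (Atf6).

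With SB431542, 2 of the 10 genes were lower, against 10.0% of the 10842 genes tested, and 0 were higher, against 10.2% (limma). At an unadjusted p under 0.05, 3 of the 10 were lower and 0 were higher, against 1842 lower and 2070 higher of the 10842 genes tested. In 4 of the 10 no SB431542 library reached the lowest DMSO library, as in 21.3% of all genes. The median log2 fold change was −0.11 over the 10 genes and 0.008 over all genes. No gene of the 10 changed by more than 2-fold. The 10 genes took 0.267% to 0.298% of all RPKM in DMSO and 0.234% to 0.241% with SB431542. The inhibitors were given at different doses and in separate experiments, so their effects stand side by side and were not compared. Of the 9 basal keratinocyte markers, Krt14, Krt17 and Krt5 were lower with SB431542, Krt15 and Epcam were higher and 4 were neither (median log2 fold change 0.04), and their summed level was 10992 to 11197 RPKM in DMSO and 7730 to 8288 RPKM with SB431542. Pecam1 was lower and Dcn, a fibroblast marker, was higher (limma), with list sums of 5.23 to 6.57 and 2.60 to 2.83 RPKM for the endothelial markers and of 2.35 to 2.45 and 3.63 to 4.14 RPKM for the fibroblast markers. The part of these shifts in the values of the 10 genes was not tested.

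The remaining genes of ER folding were described in 9 lists. Their counts with T-5224 stand beside 40.3% of all genes tested that were higher and 39.4% that were lower. Among the other sensors and the enzymes that activate them, T-5224 gave a mixed picture: of 6 tested, 2 were higher, 1 was lower and 3 passed in neither direction. Eif2ak3, the gene of PERK, was at 14.1 ± 0.590 RPKM in DMSO and at 14.4 ± 0.812 RPKM with T-5224 (SD, n = 2; log2 fold change 0.03, limma adjusted p = 0.725). Atf6b, the relative of Atf6, was at 52.3 ± 1.54 and 53.1 ± 1.40 RPKM (0.02, adjusted p = 0.725), where Atf6 rose 4.33-fold. The proteases that cut ATF6 went apart, with Mbtps1 lower (57.8 to 35.4 RPKM, −0.70, adjusted p = 2.61e-07) and Mbtps2 higher (5.56 to 6.85 RPKM, 0.28, adjusted p = 0.0121). The call of Mbtps2 was lost without T-5224 replicate 1 (adjusted p = 0.144). Creb3, a related factor of the ER membrane, was higher (0.88, adjusted p = 3.83e-08).

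Of the 25 other ER chaperones tested, 19 were higher with T-5224 and 6 were lower, 4 were more than 2-fold higher, and the median log2 fold change was 0.41. Manf, a secreted partner of BiP, rose from 16.4 to 75.6 RPKM (log2 fold change 2.17), Hyou1, the large Hsp70 of the ER, from 36.6 to 114 RPKM (1.63), and Creld2 from 14.4 to 33.8 RPKM (1.20). The DnaJ proteins Dnajb11 (0.72) and Dnajc3 (0.52) and the membrane lectin Canx (0.55) rose less than 2-fold. Canx is the membrane-bound relative of Calr. The largest falls were of the prolyl isomerase Fkbp14 (−0.92) and of Sdf2 (−0.81), which went from 46.6 to 26.4 RPKM while its relative Sdf2l1 rose 3.53-fold. The adjusted p of these genes lay at or under 4.19e-05 (limma).

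Among the 19 disulfide enzymes tested, 11 were higher, 5 were lower and 3 were neither, with a median of 0.56. The oxidases Ero1l (log2 fold change 1.13) and Ero1lb (1.30) and the isomerases Pdia5 (1.36) and Pdia6 (0.87) rose. Ero1lb was low, at 0.367 RPKM in DMSO and 1.64 RPKM with T-5224, passed the filter through the T-5224 libraries, and had a log2 fold change of 0.95 with a pseudocount of 1 and 1.90 with one of 0.1. P4hb, the most abundant isomerase at 422 ± 3.88 RPKM in DMSO, was at 400 ± 0.724 RPKM with T-5224 (−0.08, limma adjusted p = 0.157), but was called lower with quantile normalization (−0.18, adjusted p = 0.00137). Gpx8, an ER peroxidase, fell from 49.6 to 5.37 RPKM (−3.09) and Qsox1, a sulfhydryl oxidase, from 18.7 to 11.3 RPKM (−0.71).

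Of 29 genes of ER-associated degradation, 17 were higher, 5 were lower and 7 were neither, with a median of 0.37. Selenos (log2 fold change 1.55), Sel1l (1.41), the ubiquitin ligase Syvn1 (0.91) and the lectin Edem1 (0.75) rose, and Os9 (−0.80) and Rnf103 (−0.44) fell. Derl3 averaged 0.0260 RPKM in DMSO and 0.0905 RPKM with T-5224 and was too low to be tested. Of 23 genes of translocation into the ER, 17 were higher and 4 lower (median 0.63), with Srprb (1.17) and Srp68 (1.07) at the top and Sec62 (−0.53) and Sec61b (−0.47) at the bottom. Of the 10 oligosaccharyltransferase genes, 7 were higher and 3 lower (median 0.58), from Ost4 (−0.78) and Dad1 (−0.61) to Ostc (1.09) and Krtcap2 (2.14). Of 20 genes of retrieval and COPII vesicles, 15 were higher and 3 lower (median 0.29). There, Sec24d (1.72), Kdelr2 (0.95) and Kdelr3 (0.24) rose, and Sec24c (−0.31) and Sec24b (−0.29) fell. The call of Kdelr3 was lost without DMSO b, without T-5224 replicate 2 and with no filter on low values (adjusted p up to 0.172).

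The list with the highest median was that of genes downstream of PERK and ATF4, where 25 of 26 were higher with T-5224, 23 of them more than 2-fold, and 1 was lower (median 2.49). Over all genes tested, 40.3% were higher and 10.4% more than 2-fold higher. In the SB431542 experiment 23 of the 26 passed the filter on low values. Fgf21, Gdf15 and Stc2 did not, at 0.697, 0.180 and 0.442 RPKM in its DMSO libraries. Genes low in DMSO can pass the filter through the T-5224 libraries, which favours rises, so the counts of this list may be raised by the filter. How many of the 26 passed in this way was not counted. Trib3 went from 7.15 ± 1.18 to 539 ± 11.6 RPKM (SD, n = 2; log2 fold change 6.15), Atf3 from 2.25 to 101 RPKM (5.20), Ddit3, the gene of CHOP, from 19.4 to 574 RPKM (4.85), and Ppp1r15a, the gene of the eIF2α phosphatase subunit GADD34, from 9.86 to 244 RPKM (4.56). Chac1 (3.77) and Atf4 itself (3.52) rose too, and Vldlr fell (−1.12). Many of these genes also answer to other kinases of eIF2α. Of 21 cytosolic heat shock genes, 17 were higher, 3 were lower and 1 was neither, and 10 were more than 2-fold higher (median 0.99). Hsp90aa1 (2.00), Hspa1a (1.78), Hspa8 (1.51) and Hspa1b (0.99) rose, and Cryab (−1.11) and Bag3 (−0.17) fell, the latter not without DMSO b or without T-5224 replicate 1 (adjusted p up to 0.0621). Hspa1a and Hspa1b are near-identical copies, and their reads may be split between them. Hspa8 and Hsp90aa1 stood far lower in these DMSO libraries than in those of the SB431542 experiment (see the last section). Whether this bears on their rises was not tested.

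**Figure D4:**
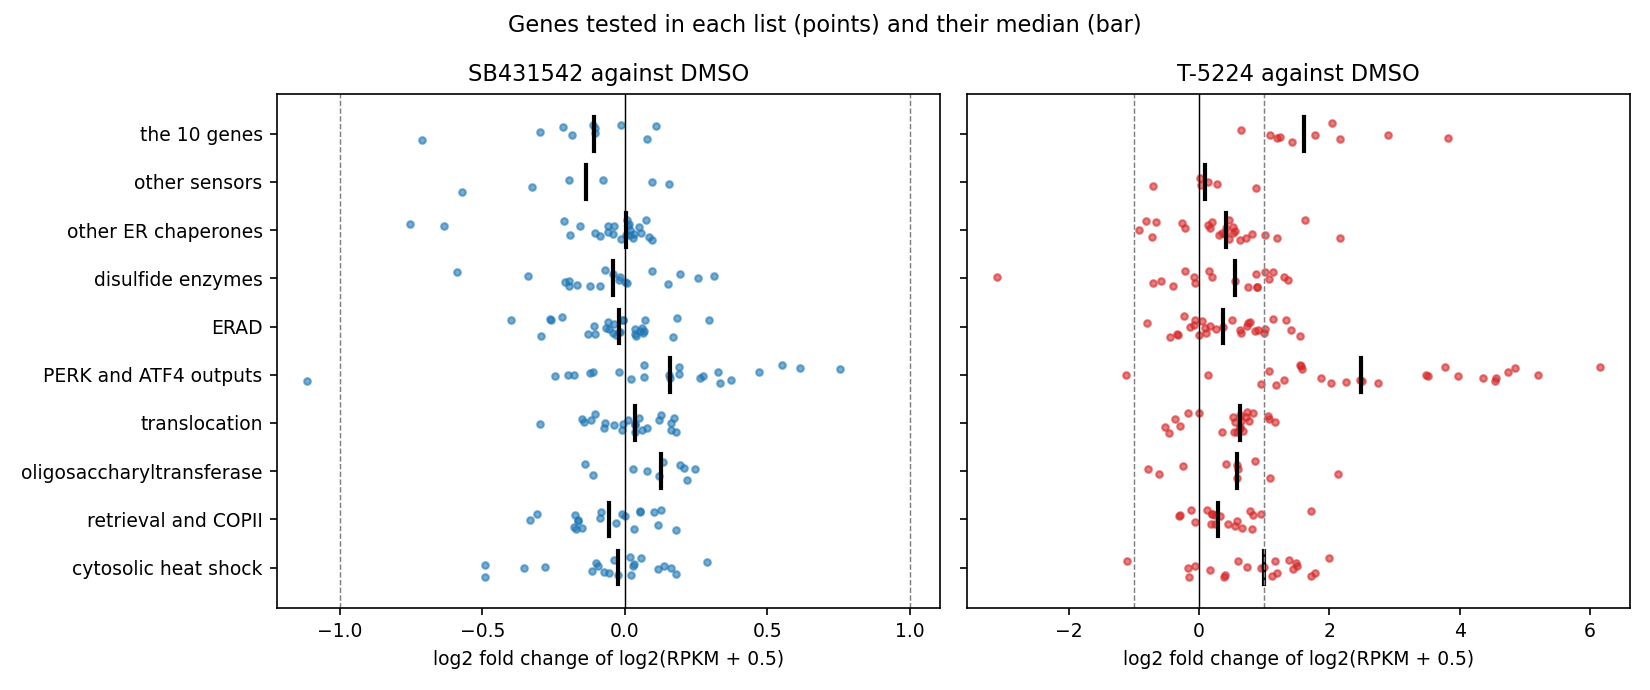
Log2 fold change of each tested gene (points) in the 10 genes and the 9 lists, with SB431542 on the left and T-5224 on the right, each axis on its own scale. Black bars are list medians; with T-5224 they run from 0.09 (other sensors) to 2.49 (PERK and ATF4 outputs).

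With SB431542 most genes of these lists did not pass the test. Over all genes tested, 10.2% were higher and 10.0% were lower. Of the 6 other sensors tested, Creb3l2 (log2 fold change −0.57) and Creb3 (−0.33) fell and the other 4 were neither, among them Eif2ak3 at −0.20 (limma adjusted p = 0.0521). Of the other ER chaperones 3 of 25 were lower and 0 were higher, with the isomerases Fkbp7 (−0.75) and Fkbp14 (−0.64) lowest. Gpx8 (−0.59) and Pdia3 (−0.21) fell and Tmx1 (0.31) rose among the 19 disulfide enzymes. Of 29 genes of ER-associated degradation, 3 fell, among them Os9 (−0.40) and Syvn1 (−0.26), and Ube2j2 rose (0.18). In the PERK and ATF4 list 8 of 23 genes were higher, among them Psat1, an enzyme of serine synthesis (0.76), Trib3 (0.61) and Atf4 (0.55), and 1 was lower, the stress factor Nupr1 (−1.11). Of 23 genes of translocation 2 were higher, Ssr1 (0.18) and Srp9 (0.16), and of the 10 oligosaccharyltransferase genes 1 was, Ostc (0.25). Of 20 genes of retrieval and COPII vesicles 2 were lower, Sec23a (−0.33) and Sec31a (−0.31). Of the 21 cytosolic heat shock genes, Hsp90aa1 (0.29) and Hspd1 (0.18) were higher, and 3 were lower, with Hspb1 (−0.49) and Cryab (−0.49) lowest. These counts depended on single libraries. Of the PERK and ATF4 list, 3 genes were higher without any 1 of the SB431542 libraries and 4 without DMSO 3, and 5 were lower without DMSO 1. Over all genes, those lower numbered between 433 (without SB431542 replicate 3) and 1900 (without DMSO 1). Single calls moved too. Of up to 15 alternatives, Ube2j2 and Hspd1 lost their calls in 10 each, Pdia3 in 9, Srp9 in 8 and Tmx1 in 7. Creb3, Ssr1 and Trib3 lost theirs in 6 each, and Os9, Ostc and Syvn1 in 5 each. Hspb1, Sec23a and Sec31a lost theirs in 3 each, and Hsp90aa1 and Fkbp7 in 2 each. Creb3l2, Fkbp14, Gpx8, Psat1, Atf4, Nupr1 and Cryab kept theirs in every alternative run.

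The exact ER stress elements shown above also stand in promoters outside the 10 genes. In the T-5224 experiment 24 tested genes held one, the 4 genes above included, and 18 of these 24 were higher, 3 were lower and 3 were neither. Without the 4, 14 of 20 were higher (70% against 40.4% of the 8454 tested genes with a promoter window) and 6 of 20 were more than 2-fold higher (30% against 10.3%). The 6 were Krtcap2 (log2 fold change 2.14), Acacb (1.25), Alg12 (1.24), Creld2 (1.20), Xlr3a (1.13) and Zfp57 (1.03). Acacb (0.389 RPKM in DMSO and 1.62 RPKM with T-5224) and Zfp57 (0.752 and 2.05 RPKM) passed the filter on low values through the T-5224 libraries. Over genes with a mean of at least 1 RPKM in DMSO, a limit set after the data were seen, 12 of 18 were higher (66.7% against 39.3% of 8292) and 4 of 18 more than 2-fold higher (22.2% against 9.23%). Alg12 is a mannosyltransferase that builds the N-glycan precursor in the ER. Adcy3 (−0.78), Calr4 (−0.60) and Lgalsl (−0.27) were lower. With SB431542, 18 such genes outside the 10 were tested, of which 1 was higher and 3 were lower. Of the 8471 tested genes with a promoter window there, 889 (10.5%) were higher and 832 were lower. Of the 20, Canx, Creld2, Dnajb11, Dnajc3, Krtcap2, Pdia6 and Syvn1 are in the lists above, and all of these were higher with T-5224. Outside the lists, Acacb, Alg12, Nucb1, Rbm39, Rcl1, Xlr3a and Zfp57 were higher. There, Adcy3, Calr4 and Lgalsl were lower, and Hnrnpa3, Lrif1 and Pan2 were neither. The shares over the 20 are thus not separate from the lists and rest in good part on genes counted there. No test was run on these shares.

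**Figure D5:**
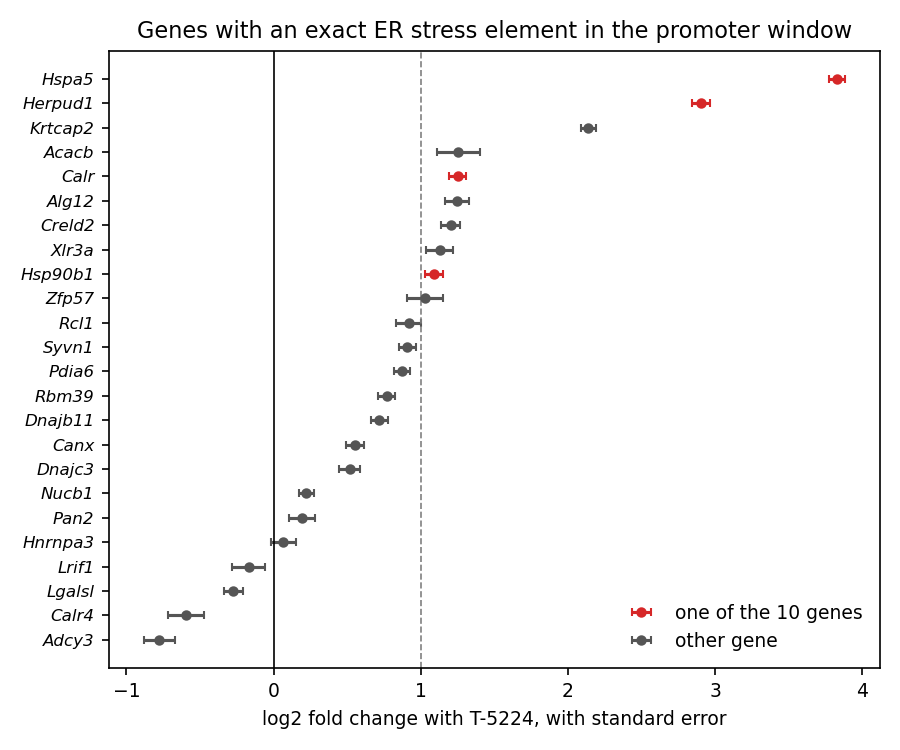
Log2 fold change with T-5224, with standard errors from limma, of the 24 tested genes whose promoter window holds an exact ER stress element of either kind. Red points are the 4 genes among the 10 and grey points the other 20; the values run from −0.78 (Adcy3) to 3.83 (Hspa5), and the dashed line marks 2-fold.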

How the data were processed

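RNA-seq of ASZ001 cells was analysed from 2 tables, 1 for each inhibitor with its own DMSO libraries. Reads were mapped by the authors to mm9 with TopHat 2.1.1, and analyzeRepeats.pl of HOMER 4.10 gave RPKM per gene. The deposited values are RPKM, so the study's count test (DESeq2) was not run. All 10 columns were used. In the T-5224 experiment the vehicle libraries are 4 and 5 in the labels and 1 and 2 in the file, so they were used as unordered replicates (DMSO a and b). The series text calls the replicates biological.

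Rows whose names had become dates were left out (22 and 23). A gene was tested where its RPKM averaged 1 or more, which held for 10842 and 10809 genes. The test was that of limma 3.58.1 in R 4.3.3 (two-sided, log2(RPKM + 0.5), trended variance), with p-values adjusted by Benjamini-Hochberg over all genes tested. Calls were made at an adjusted p under 0.05, and separately also beyond 2-fold. With 2 libraries a group, the variance rests on the moderation across genes. The fit was tested on simulated data with independent normal noise, where few genes changed and each by more than 2-fold. That setting covers neither a response as broad as that to T-5224 nor changes as small as most with SB431542. The 10 genes and the lists were chosen with earlier results of these data known.

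Named genes were all 10, a fixed set from the lists, and in each list the 2 largest rises and the 2 largest falls among genes called at an adjusted p under 0.05 without overlap. Genes with an ER stress element that lie outside that rule were named after their values were seen. The markers of basal keratinocytes, Hedgehog-active BCC, fibroblasts, immune cells, endothelium and melanocytes were summed per library. Gene positions were read from GENCODE on NCBIM37 (mm9), and promoter sequences are from RefSeq on GRCm38.p6. The Hedgehog markers (4 of 5 in each table) summed to 5.82 to 6.29 RPKM in DMSO and 4.66 to 5.15 RPKM with SB431542, and to 9.69 to 9.96 RPKM and 4.95 to 5.04 RPKM in the T-5224 experiment.

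Alternatives were pseudocounts of 0.1 and 1, no filter or a minimum of 5 in its place, median centring, quantile normalization, no trend, p-values without adjustment, a block by replicate number (SB431542), and each library left out.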

Additional observations from a re-analysis of the deposited data

How the results depend on the processing

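With T-5224 the 10 genes kept their direction and their calls (10 higher, 9 over 2-fold) under each alternative run, except that a mean RPKM of at least 5 left Ern1 untested (9 higher), with Hspa5 between 3.74 and 3.88 on the log2 scale. With SB431542, Xbp1 kept its call, with log2 fold changes of −0.83 to −0.65 and an adjusted p of at most 0.0382. The number of the 10 that were lower was 2. It was 1 with no filter on low values (Calr lost, adjusted p = 0.0688), 1 with the replicate block (adjusted p = 0.0697), 3 with quantile normalization or an unadjusted p, where Hspa5 was added, and 1 to 3 with 1 library left out. Same-numbered DMSO and SB431542 libraries had correlations of −0.15, 0.15 and −0.09 around their group means, and not every library went best with its own number. Values around a mean of 3 libraries are tied to each other, so these correlations cannot decide whether the numbers pair the libraries. The replicate block moved the genes lower with SB431542 from 1085 to 699 and those higher from 1107 to 572, and an unadjusted p moved them to 1842 and 2070. With 1 library left out they ranged from 433 to 1900 and from 300 to 2163, highest without DMSO 1 in both. Reversed signs were all near zero. In the SB431542 experiment Atf6 was at 0.0075 with quantile normalization and between −0.072 and 0.042 with 1 library left out, and Sdf2l1 was between −0.12 and 0.20. In the T-5224 experiment Atf6b was at −0.074 with quantile normalization and between −0.0079 and 0.052 with 1 library left out, and Eif2ak3 between −0.027 and 0.084. The cause was not tested. Of the counts in the 9 lists, 103 of the 270 recomputed with SB431542 moved by over 1.5 times or to or from 0, as did 1 of 216 with T-5224. Limits are that 2 libraries stand in each T-5224 group, and that RPKM shares 1 total per library, so a level here is relative to all other RNA.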

Other observations

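Levels of the cytosolic chaperones in the DMSO libraries differed widely between the tables. In the vehicle arm of the SB431542 experiment Hspa8, the constitutive cytosolic Hsp70, stood at 984 ± 63.9 RPKM (SD, n = 3), and in that of the T-5224 experiment at 38.0 ± 1.13 RPKM (SD, n = 2). Hsp90aa1 was at 248 ± 5.66 and 34.5 ± 2.12 RPKM, while Hspa1b was at 80.3 ± 8.89 and 171 ± 4.37 RPKM. Among the ER chaperones, Hspa5 was at 198 ± 12.5 and 83.4 ± 4.73 RPKM, and P4hb was at 353 ± 20.9 and 422 ± 3.88 RPKM. These levels come from tables made and normalized separately, and whether the cells or the counting of reads differed was not tested.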
